A study of Mus musculus with 2 samples.

Results

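The cells described here are fibroblasts of embryonic mouse back skin whose chromatin was least open at a set of upper dermal genes relative to a set of lower dermal genes. They were selected on measured values. In each library a gene-set score was the share of a cell's transposition cuts lying in peaks within 2 kb of the set's gene bodies, divided by the mean share of all cells with at least 5000 cuts. A cell counted as a fibroblast where the log2 score of 9 epithelial genes minus that of 8 fibroblast genes was below -1, and the fibroblasts were then ranked by the score of Lef1, Axin2, Apcdd1, Ntn1 and Dkk1 over the score of Dlk1, Mfap5, Pparg and Dpp4. In each library the lowest of 3 classes of near-equal size by this ratio, the low-ratio class described here, held 231 Control and 458 MOF cKO cells, 689 in all, out of 2075 fibroblasts and 6462 cells with at least 5000 cuts among 6889 barcodes. The middle and high-ratio classes served for comparison, with 691 and 689 cells, and 6 fibroblasts with no cut in either dermal set had no ratio and were in no class.

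The series holds 2 single-cell ATAC-seq libraries, in which a transposase cuts open chromatin, 1 from a Control skin and 1 from a MOF cKO skin at E16.5, late in embryonic development. The labels give the genotypes as Control and MOFfl/fl/K14Cre, and both skins carried the K14-H2BGFP reporter, by which GFP-positive epithelial cells were sorted and put back with GFP-negative cells. The labels give that mixture as 5:1, and the study's text gives other proportions. MOF is encoded by Kat8 and acetylates lysine 16 of histone H4. The Cre is driven by the Krt14 promoter, which is active in the epithelium, so fibroblasts are not the cells it is meant to recombine, and recombination in them was not measured. There were no replicates of either genotype. Every interval below is a 95% interval that covers counting error only, and no value tests a difference between genotypes, which cannot be told apart here from a difference between 2 preparations.

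In developing skin a common dermal progenitor gives rise to an upper, papillary lineage next to the epidermis and to a lower, reticular lineage that builds most of the collagen matrix and contributes to dermal adipocytes and fascia. WNT signals from the epidermis act on the upper dermis, where Lef1, Axin2, Apcdd1 and Dkk1 are targets or regulators of the pathway. In the lower set, Dlk1 encodes a NOTCH-related surface protein of reticular cells and preadipocytes, Pparg the master regulator of fat cell formation, Dpp4 a surface peptidase used to sort dermal and fascial fibroblasts, and Mfap5 a microfibril glycoprotein.

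The values that chose the cells are given as a description. Levels are in CPM, the cuts in shared regions around a gene scaled to 1000000 cuts in shared regions of all cells of that class, where a shared region is one with a peak in both libraries. For Pparg (chromosome 6, 115360951 to 115490399, GRCm38), the low-ratio class had 83.3 CPM in Control and 104 in MOF cKO, against 13.8 and 21.9 in the high-ratio class. For Dpp4 the values were 82.7 and 79.0 against 20.2 and 31.0. For Mfap5 they were 22.6 and 16.53 against 2.48 and 2.89, and for Dlk1 17.3 and 18.2 against 7.51 and 4.71. In both libraries, and for each of the 4 genes, the middle class lay between the others. Upper-set genes ran the other way, as for Dkk1, with 7.26 and 7.61 CPM in the low-ratio class and 23.3 and 15.8 in the high-ratio class. Fibroblast genes were open in all 3 classes, with Col1a1 at 117 and 86.4 CPM in the low-ratio class and at 34.3 and 32.5 in epithelial cells, and Krt5 stood at 3.60 and 1.26 CPM against 65.8 and 39.8.

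A ratio of sparse counts separates cells partly by the very counts that enter it, so each of the 9 dermal genes was also measured after the classes were redrawn without it. The 4 lower genes then did not keep together. Mfap5 remained higher in the redrawn low-ratio class, by 1.65 on the log2 scale in Control (1.12 to 2.20) and by 0.64 in MOF cKO (0.19 to 1.06). Pparg differed by 0.21 (-0.01 to 0.43) and 0.17 (0.01 to 0.33), where the cells chosen with it had differed by 2.59 and 2.24. Dlk1 differed by -0.00 (-0.43 to 0.44) and 0.25 (-0.13 to 0.63). Dpp4 differed by 0.17 (-0.04 to 0.38) in Control and was lower, at -0.31 (-0.48 to -0.15), in MOF cKO. Thus, apart from Mfap5, no lower gene was clearly more open in both libraries in the low-ratio class redrawn without it. That ratio also holds the upper genes, and openness of the lower genes together in single cells was not measured. Among the upper genes, Lef1 kept differences of -0.41 (-0.56 to -0.27) and -0.48 (-0.62 to -0.34), Axin2 of -0.38 (-0.51 to -0.24) and -0.48 (-0.60 to -0.36), Dkk1 of -1.21 (-1.64 to -0.77) and -0.64 (-1.01 to -0.27) and Ntn1 of -0.21 (-0.31 to -0.11) and -0.16 (-0.25 to -0.07), whereas the intervals of Apcdd1 spanned 0, at -0.17 (-0.39 to 0.04) and -0.06 (-0.24 to 0.11). The name reticular is therefore not used for these cells, which are called low-ratio fibroblasts after the rule.

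**Figure D1:**
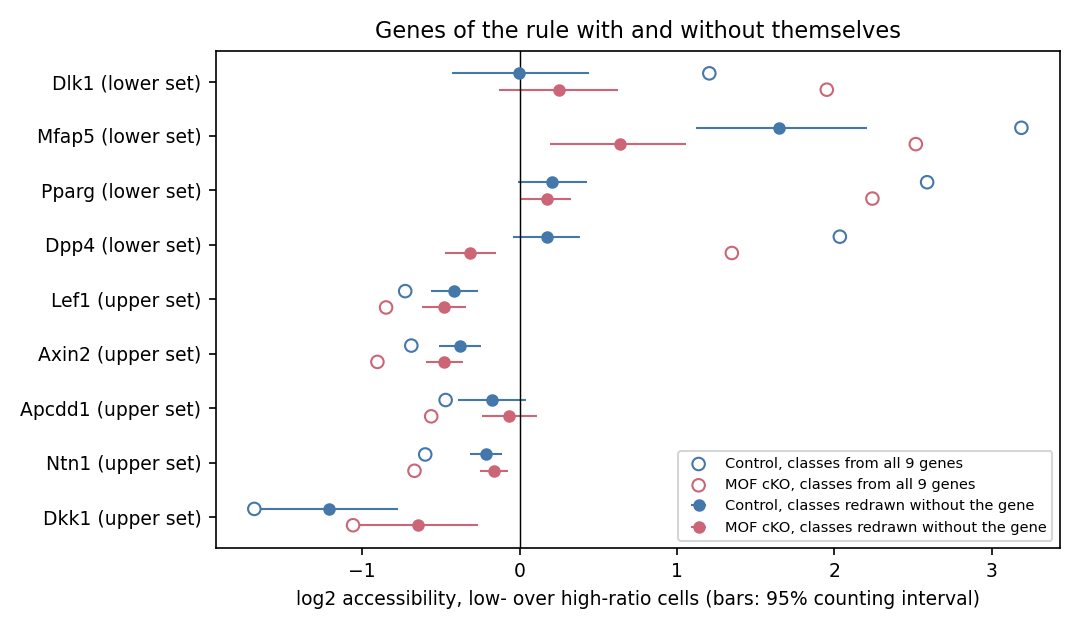
Log2 of the CPM ratio between the low- and high-ratio classes (x axis) for the 9 dermal genes of the rule (y axis) in each library. Open circles are the cells as chosen and filled circles the classes redrawn without the gene, with 95% counting intervals. After redrawing, Mfap5 stays above 0 in both libraries, at 1.65 and 0.64, while Dlk1, Pparg and Dpp4 lie between -0.31 and 0.25.

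The boundary of the ratio was not a gap. In Control the highest ratio inside was 0.893 and 2 cells just outside had the same value, the next lying at 0.907. In MOF cKO the last cells inside stood at 0.9503 and the first outside at 0.954 and 0.963. A ratio of 0, that is no cut in the upper set, was found in 1 Control and 28 MOF cKO low-ratio cells, and no cut in the lower set in 75 of 231 and 102 of 458 high-ratio cells. Depth was similar among the classes, with a median of 64871 cuts per low-ratio cell in Control (5520 to 251929) and 50445 in MOF cKO (5314 to 159290), and the low-ratio cells summed to 15019092 and 22204711 cuts in shared regions. Of all barcodes, 21 occurred in both libraries, and 4 of those belonged to a low-ratio cell in one of them. The gene targeted in the cKO, Kat8 (chromosome 7, 127912516 to 127925837), had 36.2 CPM (32.0 to 40.8) in Control and 32.3 (29.1 to 35.9) in MOF cKO low-ratio cells, over regions it shares with Bckdk and Prss8. Accessibility of this window does not report on whether the floxed part was deleted.

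The low-ratio class also collected cells with little fibroblast signal. A fibroblast score below 1, the library mean, was found in 19 of 231 Control (8.23%) and 80 of 458 MOF cKO (17.5%) low-ratio cells, against 17 and 28 high-ratio cells. An immune marker score above 3 was found in 7 and 54 low-ratio cells and in 1 and 3 high-ratio cells. The summed level of the immune list, of whose 12 genes Lyz2 had no region, was 137 CPM in Control and 182 in MOF cKO low-ratio cells, and 122 and 123 in those with a fibroblast score of at least 1. Since these cells differ in number between the libraries, the main counts and some of the named genes are also given for the 212 and 378 low-ratio cells with a fibroblast score of at least 1, called here the strict cells, a choice made after the data were seen. Summed markers of tendon and cartilage were lower in low- than in high-ratio cells (427 against 542 CPM in Control, 418 against 471 in MOF cKO), as were those of muscle (181 against 214, and 155 against 194). Epithelial genes outside the rule were higher in low-ratio cells (287 against 264, and 277 against 244). Mural genes stood at 369 against 385 in Control and at 379 against 350 in MOF cKO (391 against 344 in cells with a fibroblast score of at least 1). Endothelial genes stood at 456 against 464 and 425 against 440, Schwann genes at 277 against 275 and 256 against 272, and melanocyte genes at 185 against 178 and 221 against 217. The part of these markers in the differences between the classes was not tested.

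The first comparison asks what else differed between low- and high-ratio fibroblasts. Of 15404 genes with at least 500 cuts, 129 (0.837%) were at least 1.5-fold more open in the low-ratio cells of both libraries and 74 (0.48%) in the high-ratio cells, after leaving out 24 genes whose windows share a region with a gene of the rule. The middle class lay between the others in both libraries for 109 and 70 of them. In the strict cells 115 and 65 genes passed, of which 83 and 53 were among the genes above. Because the cells were split within each library by their own counts, these genes describe what went with the ratio and carry no test.

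Among the listed genes that passed, 3 outside inflammatory signalling were Tnxb, Igfbp6 and Cd36. Tnxb, which encodes the matrix glycoprotein tenascin-X (chromosome 17, 34670535 to 34719815), had 25.3 CPM in Control and 40.3 in MOF cKO low-ratio cells against 15.6 and 17.5 in high-ratio cells, log2 differences of 0.70 (0.35 to 1.05) and 1.20 (0.96 to 1.46). Igfbp6, a binding protein with a preference for IGF2 (chromosome 15, 102144362 to 102149511), had 24.9 and 33.3 against 11.95 and 19.7, or 1.06 (0.68 to 1.45) and 0.76 (0.51 to 1.01), over regions it shares with Soat2. Cd36, a fatty acid transporter, had 21.4 and 37.3 against 11.8 and 19.9. The call required at least 1.5-fold in both libraries, and for each of these genes both gave an interval above 0. In the strict cells Tnxb kept 0.67 and 1.10 and Igfbp6 1.24 and 0.73, but Cd36 in MOF cKO fell below 1.5-fold, at 0.49.

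A further 3 genes belong to the list of inflammatory signalling. Il1rl1, the receptor for interleukin 33 (chromosome 1, 40429570 to 40465415, sharing regions with Il18r1), had 11.7 CPM in Control and 36.1 in MOF cKO low-ratio cells and 3.35 and 13.9 in high-ratio cells, differences of 1.81 (1.13 to 2.54) and 1.38 (1.10 to 1.66). Nfkb1, which encodes an NF-kB subunit, had 96.5 and 141 against 57.7 and 89.1, and the chemokine gene Ccl7 had 13.4 and 20.99 against 6.92 and 13.5. These were the 3 of 32 tested inflammatory genes that passed in both libraries, where 0.837% of all genes did. The immune list was at 182 CPM in MOF cKO low-ratio cells against 134 in high-ratio cells, and its part in these differences was not tested. In the strict cells, where it was at 122 and 123 CPM in low-ratio cells of Control and MOF cKO, Il1rl1 kept 1.69 and 1.39 and Nfkb1 0.72 and 0.62, but Ccl7, at 0.86 and 0.56, fell short in MOF cKO, which left 2 of 31. Ccl2, another chemokine gene, was 1.22 higher in Control low-ratio cells (78.0 against 33.5 CPM) but only 0.10 (-0.03 to 0.23) in MOF cKO (95.1 against 88.7).

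Among the 10 genes highest by the smaller of the 2 libraries' differences were Gnat3, which encodes the taste G protein gustducin and lies near Cd36 (1.68 and 1.62), and Akr1c14, a hydroxysteroid dehydrogenase gene (1.92 and 1.40). Fam71a differed by 1.93 and 1.30. Mndal (1.98 and 1.75), Ifi204 (2.79 and 1.60) and Olfr432 (2.14 and 1.45) lie in one stretch of chromosome 1 that holds interferon-inducible genes, and Camp, the cathelicidin gene, differed by 1.49 and 1.70. Dhrs9 (1.27 and 1.35) and Ncf4 (1.31 and 2.19), the latter encoding a subunit of the phagocyte NADPH oxidase, completed the 10 with Il1rl1. Ncf4 fell below 1.5-fold in strict Control cells, at 0.36, while the other 9 stayed past it in the strict cells of both libraries, Mndal at 1.41 and 1.65 and Dhrs9 at 0.98 and 0.66. Of 9 mural genes tested Abcc9 passed upward (1.53 and 1.15), and 2 passed in the strict cells, where the list's medians were -0.11 in Control and 0.18 in MOF cKO. Of 9 endothelial genes Tek passed upward (1.41 and 0.71) and Cdh5 downward (-0.78 and -0.61), where 0.837% and 0.48% of all genes passed upward and downward.

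Genes more open in high-ratio cells included Grem1, encoding a secreted BMP antagonist (chromosome 2, 113746164 to 113758646), with 12.8 CPM in Control and 14.5 in MOF cKO low-ratio cells against 21.1 and 24.04, a difference of -0.73 in each library. Col6a1, a collagen VI chain, had 35.3 and 27.1 against 53.4 and 43.0, and Spon1, encoding F-spondin, 111 and 86.0 against 170 and 137. The call required the same direction in both libraries, so their shared direction is no further result. The 10 lowest genes by rule were Siglecf, Gm21885, 1700013G24Rik, Trpv6, 9330159F19Rik, Kcna5, Stmn2, Pdyn, Crybb3 and Ankfn1, of which Ankfn1 had the most cuts, at 83.0 and 61.4 CPM against 168 and 128. Pdyn, the prodynorphin gene, stood at -1.05 and -1.44, and Kcna5, a potassium channel gene, at -1.10 and -1.29. All 10 stayed past 1.5-fold in the strict cells of both libraries, whereas Col6a1 fell just short in MOF cKO at -0.58. In promoter regions alone Trpv6 turned sign in MOF cKO, at 0.80.

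**Figure D2:**
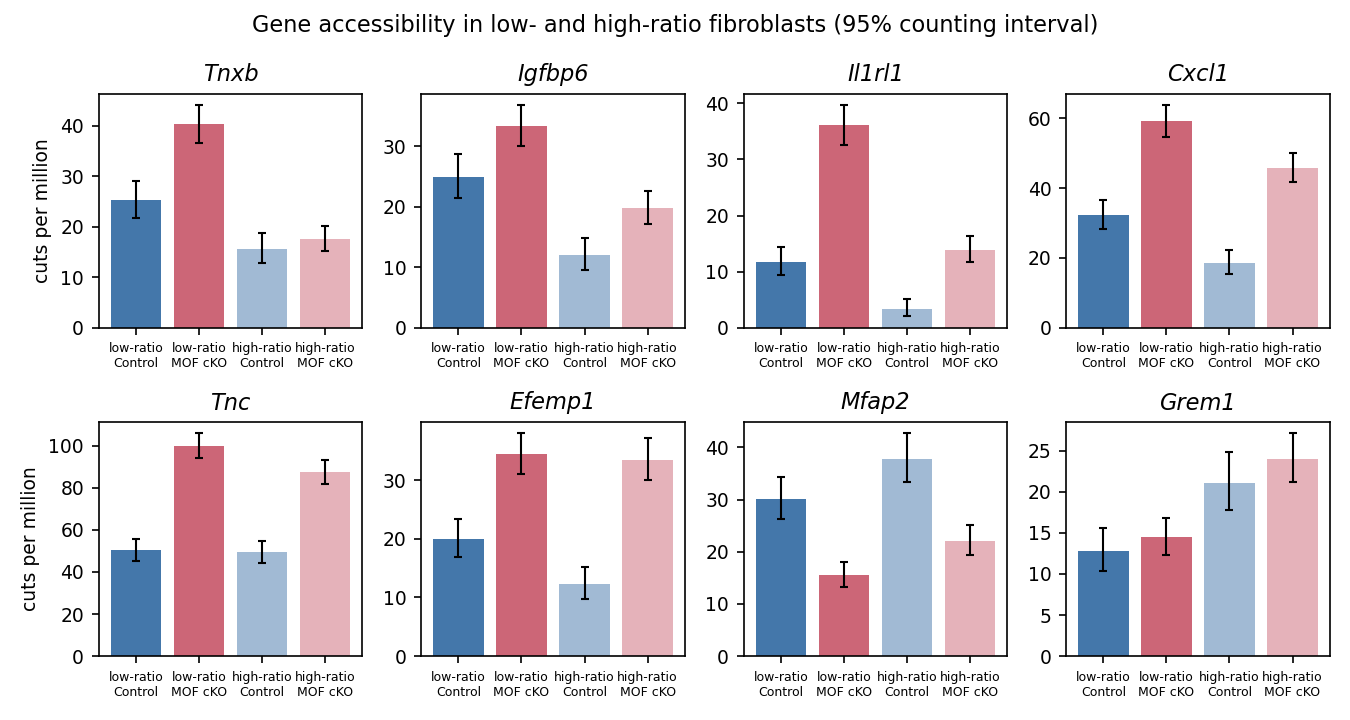
CPM (y axis) of 8 genes in low- and high-ratio fibroblasts of the Control and MOF cKO libraries (x axis), where bars are class sums and error bars 95% counting intervals. Tnxb, Igfbp6 and Il1rl1 are highest in the low-ratio cells and Grem1 in the high-ratio cells of both libraries, while Tnc rises from 50.2 to 99.9 CPM and Mfap2 falls from 30.1 to 15.4 between Control and MOF cKO low-ratio cells.

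By list, the direction of the ratio was shared more widely than the 1.5-fold calls show. Of the lower dermis and fascia list, 11 of 18 tested genes were higher and 3 lower in low-ratio cells of both libraries, with median log2 differences of 0.21 and 0.37, and 1, Tnxb, passed. Of the upper dermis list, 16 of 20 were lower in both (medians -0.31 and -0.19). Of the dermal condensate list, which marks the cell clusters under forming hair follicles, 13 of 18 were lower and 0 higher (-0.29 and -0.22), and of the hedgehog list 7 of 11 were lower and 0 higher (-0.27 and -0.14). WNT pathway genes were lower in both libraries in 25 of 41. These lists overlap, as Wif1, Nkd1, Nkd2, Notum, Rspo1, Rspo3 and Dkk2 are both upper dermis and WNT genes. Ptch1, Gli1 and Hhip are both condensate and hedgehog genes. The ranking itself used Lef1, Axin2, Apcdd1 and Dkk1 of the WNT pathway, so the lists are not independent of the rule or of each other. Over all genes tested 34.0% were higher and 28.6% lower in both libraries, with medians of 0.02 and 0.01. None of the upper dermis, condensate, hedgehog or WNT genes passed 1.5-fold, where 0.837% of all genes passed upward and 0.48% downward. The strict cells gave 11 of 17 lower dermis genes higher, and 16 of 20 upper dermis, 14 of 17 condensate, 7 of 11 hedgehog and 24 of 41 WNT genes lower, beside 30.0% and 31.3% of all genes.

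The inflammatory list had 22 of 32 genes higher in low-ratio cells of both libraries, with medians of 0.35 and 0.16 (21 of 31, with 0.36 and 0.14, in the strict cells), and the list of AP-1 factors 7 of 10 (0.24 and 0.10). Adipogenic regulators and lipid genes other than Pparg had medians of 0.04 and 0.08, with 10 of 23 higher in both and Cd36 as the 1 that passed. Matrix genes were divided, 18 of 41 higher and 15 lower. Mesenchymal transcription factors had medians of -0.04 and -0.02 and none of 54 passed, and the IGF and imprinted list had 0.09 and -0.02 with Igfbp6 passing. Of TGF-beta and BMP genes 12 of 27 were lower in both, Grem1 among them. These counts stand beside the 34.0% of all genes that were higher and the 28.6% that were lower in both libraries. Of all genes 0.837% passed 1.5-fold upward and 0.48% downward. Electron transport genes (0.06 and 0.05) and cilium transport genes (0.05 and 0.03), processes the study followed in epithelium, differed little.

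**Figure D3:**
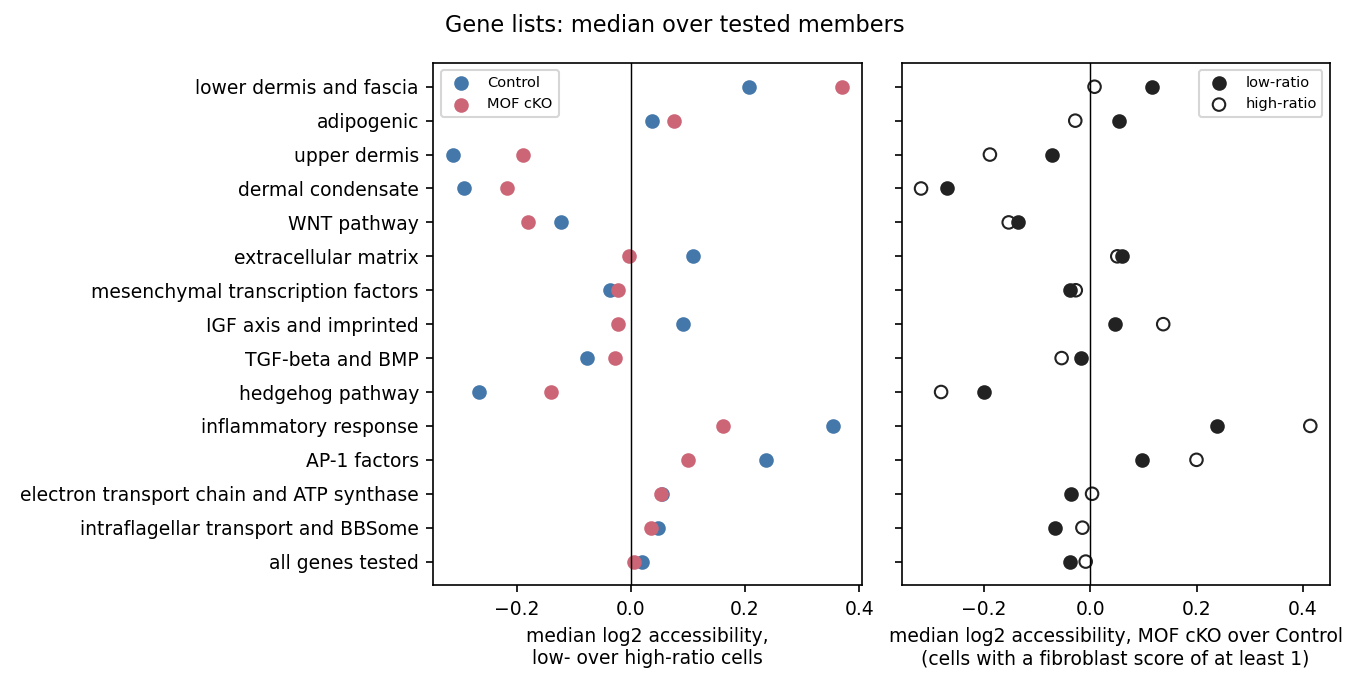
Median log2 difference (x axes) of each gene list (y axis), on the left between all low- and high-ratio fibroblasts in each library and on the right between MOF cKO and Control in both classes, there only for cells with a fibroblast score of at least 1. Inflammatory genes lie right of 0 throughout, on the left at 0.35 and 0.16, and dermal condensate and hedgehog genes lie left of 0.

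The classes were then compared over distal regions, where many enhancers lie. Of 79067 shared regions more than 2000 bp from any start site with at least 100 cuts, 5275 (6.67%) were at least 2-fold more open in low-ratio cells of both libraries and 3825 (4.84%) in high-ratio cells. Only 18 and 7 of these lay in windows of the genes of the rule. The balance turned among the 15847 tested regions with at least 500 cuts, where 367 were more open in low-ratio and 502 in high-ratio cells. The region furthest apart lay in an intron of Cntln, chr4:85026344-85027311, with 51 cuts in low-ratio and 1 in high-ratio cells of Control and 59 and 2 in MOF cKO. The second lay in an intron of Pparg itself, chr6:115411104-115412209, and so belongs to the rule. The third, between genes 43.8 kb from the start of Mdm1, had 26 and 0 cuts in Control and 94 and 4 in MOF cKO. With a floor of 3 cuts in place of 0 the Control difference was 7.92-fold, and the lower limit of its log2 counting interval was 1.48. The fourth lay 11.5 kb from Adgre1, a macrophage gene, with 23 and 0 cuts in Control and 82 and 0 in MOF cKO, and the fifth 565 kb from Hdgfl1. The regions near Mdm1 and Adgre1 kept, in the strict cells, 2 and 1 cuts in Control and 18 and 14 in MOF cKO, so most of their cuts came from cells with little fibroblast signal, whereas the Cntln region kept 47 and 59. At the other end an intron of Smarcb1, chr10:75906599-75907491, had 3 cuts in low-ratio and 32 in high-ratio cells of Control and 6 and 63 in MOF cKO, followed by regions near Extl3, in introns of Rab3c and Ano2 and in an exon of Sorcs2. The Extl3 region went from -2.89 to -0.10 in MOF cKO when only strict cells were counted.

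Sequence motifs within 150 bp of the region centres, searched on both strands, differed between the sets. The AP-1 motif, TGANTCA with N any base, is bound by FOS and JUN dimers. It was found in 38.9% of the regions more open in low-ratio cells, in 12.4% of those more open in high-ratio cells and in 21.7% of all tested. The E-box CATCTG, of the kind bound by TWIST proteins of the mesenchyme, ran the other way, at 28.0%, 53.8% and 36.1%. In the strict cells the values were 35.2% and 12.6% for AP-1 and 29.9% and 56.2% for the E-box. The AP-1 share of regions more open in low-ratio cells was thus lower in the strict cells, and both E-box shares were higher. The part of the cells with low fibroblast signal in these shares was not tested. Among regions with at least 500 cuts AP-1 reached 44.1%, 13.1% and 22.0%.

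Smaller differences went the same way as AP-1 for the C/EBP motif TTGCNNAA (21.6% and 12.3%, with 15.0% of all), the NFI half-site TTGGCA (26.2%, 19.3% and 21.5%) and the GATA motif AGATAAG (6.37%, 1.54% and 3.45%). The homeobox motif TAATTA (5.46%, 14.1% and 9.63%) and the RUNX motif TGTGGTT (7.36%, 14.7% and 9.26%) went with the E-box. The PPAR motif GGTCAAAGG was rare, in only 18 (0.341%) and 6 (0.157%) of the called regions and in 0.245% of all. Median GC content was 46.5% in both called sets and 47.2% in all. Over every tested region with an AP-1 motif the median log2 difference was 0.35 in Control and 0.20 in MOF cKO, and without one -0.03 and -0.07.

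The following 200-base stretches are centred on the regions with most cuts among those that hold the motif and were called, chosen after values were seen, and show the letters counted above. The regions also had to be called in the strict cells and hold the motif within the stretch. Regions on chromosomes 18, X and Y and in windows of the genes of the rule were left out. They are from the plus strand of GRCm38, written 5′ to 3′, with only the AP-1 motif in capitals in the first 3, all more open in low-ratio cells, and the E-box in capitals in the next 3, more open in high-ratio cells. A match is a description and not a bound site.
In an exon of Gfpt2, chr11:49811296-49811495: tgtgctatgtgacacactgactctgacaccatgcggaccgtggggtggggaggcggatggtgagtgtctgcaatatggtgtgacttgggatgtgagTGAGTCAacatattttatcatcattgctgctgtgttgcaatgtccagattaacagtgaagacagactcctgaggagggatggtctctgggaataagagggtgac
In an intron of Pi4kb, chr3:94987620-94987819: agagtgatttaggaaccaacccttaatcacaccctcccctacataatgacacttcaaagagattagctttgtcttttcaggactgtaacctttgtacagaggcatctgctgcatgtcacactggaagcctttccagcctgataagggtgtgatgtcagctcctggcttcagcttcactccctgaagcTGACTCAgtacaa
Between genes near Trib1, chr15:59728334-59728533: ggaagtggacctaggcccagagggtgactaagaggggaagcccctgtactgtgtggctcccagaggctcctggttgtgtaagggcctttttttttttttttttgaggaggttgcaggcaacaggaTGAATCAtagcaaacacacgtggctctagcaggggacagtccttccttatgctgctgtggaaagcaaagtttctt
Between genes near Tacc1, chr8:25294448-25294647: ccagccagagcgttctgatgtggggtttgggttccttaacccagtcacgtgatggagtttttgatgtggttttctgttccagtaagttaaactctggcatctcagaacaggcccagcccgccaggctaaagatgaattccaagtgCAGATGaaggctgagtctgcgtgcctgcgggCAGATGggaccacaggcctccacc
Between genes near Irf2bp2, chr8:126707743-126707942: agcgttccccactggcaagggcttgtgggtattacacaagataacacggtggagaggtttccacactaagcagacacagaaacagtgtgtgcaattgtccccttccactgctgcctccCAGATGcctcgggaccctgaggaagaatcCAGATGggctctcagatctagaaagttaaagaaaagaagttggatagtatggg
Between genes near Robo2, chr16:74526585-74526784: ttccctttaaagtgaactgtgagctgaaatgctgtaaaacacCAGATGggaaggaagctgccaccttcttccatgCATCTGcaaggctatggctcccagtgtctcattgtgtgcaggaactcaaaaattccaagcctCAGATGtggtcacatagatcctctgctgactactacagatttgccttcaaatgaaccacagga

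Gfpt2 encodes an enzyme of hexosamine synthesis. Its region had 13.3 CPM in Control and 35.6 in MOF cKO low-ratio cells and 1.09 and 16.4 in high-ratio cells, differences of 3.61 (2.48 to 4.76) and 1.12 (0.86 to 1.39). The Pi4kb region had 24.6 and 23.96 against 3.86 and 8.57, and the one near Trib1 3.73 and 29.3 against 1.53 and 10.1. All 3 were called for a difference in the same direction in both libraries, which was larger in Control for the first 2. The Trib1 region differed by 1.28 (0.27 to 2.56) in Control, where 28 of its 56 low-ratio cuts lay in strict cells. In strict Control cells its difference was 1.86. Epithelial cells had 5.39 CPM in Control and 27.2 in MOF cKO at that region. The region near Tacc1 had 18.6 and 10.3 CPM in low-ratio against 42.1 and 28.3 in high-ratio cells, the one near Irf2bp2 13.5 and 12.1 against 36.8 and 27.0, and the one near Robo2 16.0 and 9.50 against 37.4 and 26.5.

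**Figure D4:**
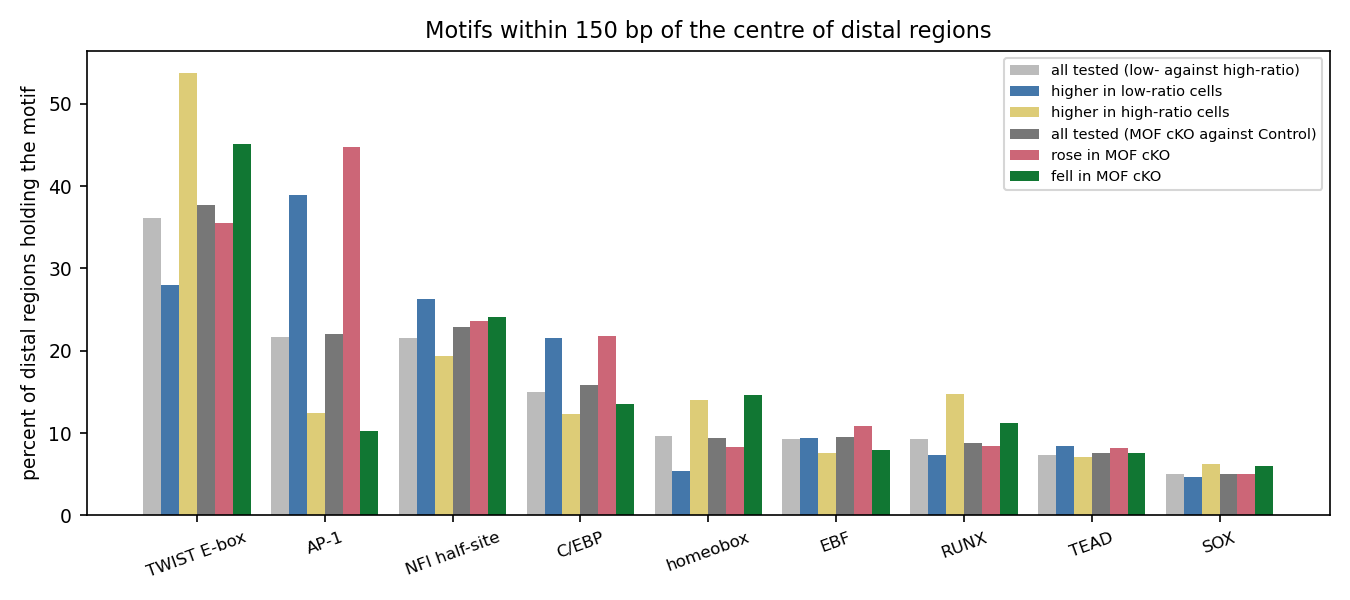
Percent of distal regions (y axis) that hold each of the 9 most frequent motifs (x axis), among regions more open in low- or high-ratio cells, those that rose or fell in MOF cKO low-ratio cells with a fibroblast score of at least 1, and all regions tested in each comparison. AP-1 is in 38.9% of regions more open in low-ratio cells against 12.4% of those more open in high-ratio cells, and the TWIST E-box in 28.0% against 53.8%.

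The second comparison sets MOF cKO against Control within the low-ratio fibroblasts. Of 14164 genes with at least 500 cuts, 217 (1.53%) rose by at least 1.5-fold and 76 (0.537%) fell. In the strict cells 143 of 13797 rose (1.04%) and 59 fell (0.428%), with 110 and 46 of these among the first. The split depended on scaling. Of the genes passing, 74.1% rose when scaled to cuts in shared regions, 45.9% when scaled to all cuts in peaks (133 rose and 157 fell) and 86.6% by the median of ratios (277 and 43). Per cell, where a MOF cKO low-ratio cell had 48481.9 cuts in shared regions and a Control one 65017.7, the median of all genes moved by -0.42 and 26 rose and 2868 fell. Changes are given relative to cuts in shared regions, on which the median of all genes was -0.02. Peaks were called in each library by itself, so the length covered around a gene or region can differ between them. It is stated for some of the genes, and matched lengths below mean that only regions covered over similar lengths in both were counted.

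Genes on chromosomes X and Y were left out of the rankings of rises and falls between genotypes, but not of the counts. A cluster of inflammatory caspase genes on chromosome 9 was among the genes that rose most. Casp1 (5298517 to 5307265) had 5.06 CPM (3.58 to 6.95) in Control and 22.1 (19.4 to 25.01) in MOF cKO low-ratio cells over 2.65 and 2.55 kb, a log2 change of 2.12, or 2.79 (2.13 to 3.54) in the strict cells. Casp4, which shares regions with it, changed by 2.02 and its neighbour Casp12 by 1.81. The rise was not particular to the low-ratio cells, since Casp1 changed by 2.71 in strict high-ratio cells and by 2.002 in epithelial cells. Piwil2, which encodes a PIWI protein of the germ line, changed by 2.08, Camp by 1.68 and Serpina3i by 1.65. Il1rl1 changed by 1.62 (1.28 to 1.97) over 3.74 and 3.51 kb, and by 1.82 and 2.11 in strict low- and high-ratio cells. Neurl3 (1.43), Itgb2 (1.36) and Zmynd15 (1.33, over regions shared with Cxcl16) completed the 10. With matched lengths the changes of Piwil2, Camp, Serpina3i, Neurl3, Itgb2 and Zmynd15 lay between 1.33 and 2.08. Itgb2, the leukocyte integrin chain, changed by 0.69 in the strict cells and by 0.07 in strict high-ratio cells, and immune genes such as Ptprc went from 0.86 in all to 0.33 in strict low-ratio cells, beside the 7 and 54 cells with an immune score above 3.

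Tnc, which encodes the matrix glycoprotein tenascin-C (chromosome 4, 63959785 to 64047015), had 50.2 CPM (45.3 to 55.5) in Control and 99.9 (94.1 to 106) in MOF cKO low-ratio cells over 12.7 and 12.8 kb, a change of 0.99 (0.82 to 1.17), and 49.3 and 87.4 in high-ratio cells. Efemp1, encoding fibulin-3 (chromosome 11, 28853204 to 28926743), had 19.9 and 34.4 over 10.3 and 10.5 kb, a change of 0.79, and 12.2 and 33.4 in high-ratio cells, though in promoter regions alone its value was 0.012. Tnxb rose by 0.67 in low-ratio cells (0.63 in strict ones) and stood at 0.19 (-0.17 to 0.57) in strict high-ratio cells. These 3 were the matrix genes that rose, of 38 tested, beside 1.53% of all genes, and Postn joined them in the strict cells at 0.61, where 1.04% of all genes rose. Of the lower dermis list Anxa3 (0.85), Tnxb and Gfpt2 (0.59) rose, 3 of 15 beside the same 1.53%, while its median was 0.06.

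Several genes of inflammatory signalling rose. Of 31 tested, 6 rose in low-ratio cells and 0 fell, and 8 rose in the strict ones, against 1.53% and 1.04% of all genes. Cxcl1, a neutrophil-attracting chemokine gene (chromosome 5, 90891241 to 90893115), had 32.2 CPM (28.3 to 36.6) in Control and 59.2 (54.8 to 63.9) in MOF cKO low-ratio cells over 1.77 and 1.85 kb, and 18.6 and 45.7 in high-ratio cells. Cxcl2 had 12.9 and 29.0 against 5.98 and 24.8, Cxcl5 10.7 and 19.6 against 8.09 and 18.7, and Ptgs2, encoding the inducible cyclooxygenase, 13.4 and 24.2 against 10.6 and 17.0. Ccl7 and Il1rl1 were the other two, and Il33 (0.62) and Il1r1 (0.64) passed in the strict cells. In strict high-ratio cells 12 of the list rose past 1.5-fold, where 1.73% of all genes did, and the list's median was 0.41 there and 0.24 in strict low-ratio cells. Ccl2 changed by 0.33 (0.18 to 0.49) in strict low-ratio and by 1.38 (1.17 to 1.60) in strict high-ratio cells. The difference between low- and high-ratio cells was not tested.

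**Figure D5:**
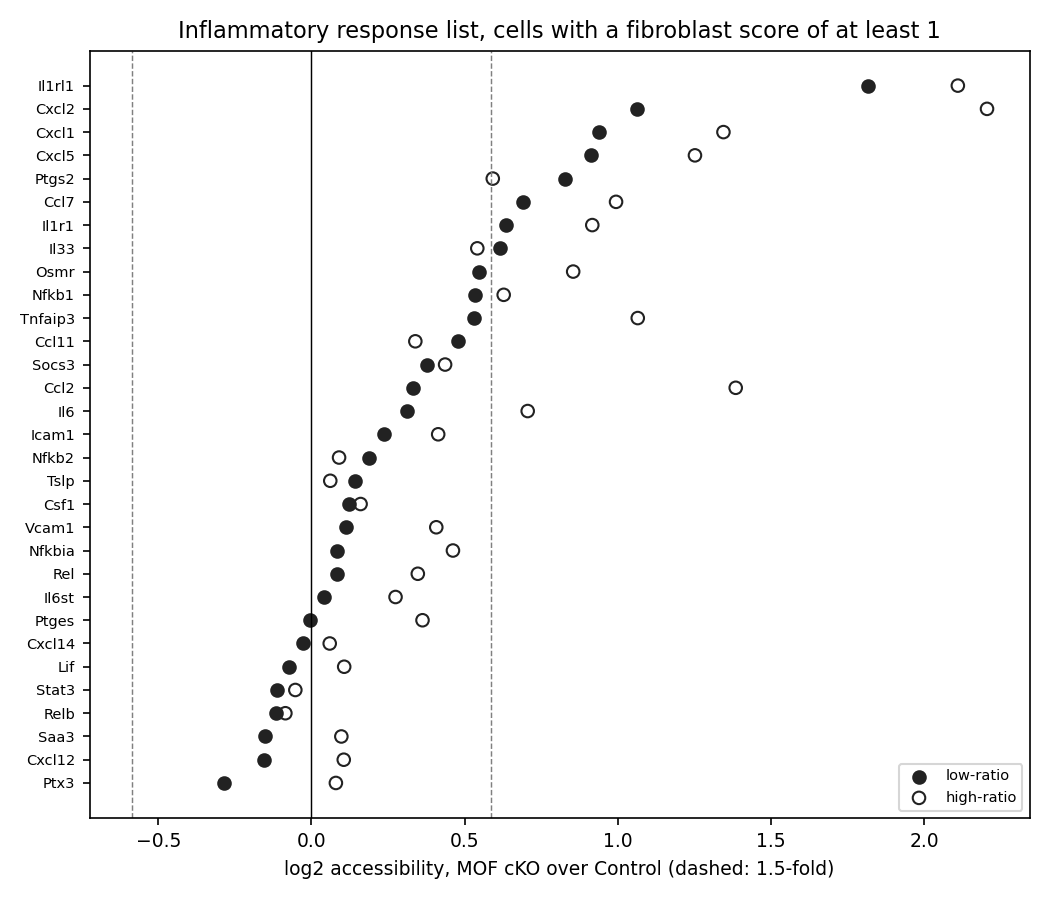
Log2 change between MOF cKO and Control (x axis) of the 31 tested inflammatory genes (y axis), in low-ratio (filled) and high-ratio fibroblasts (open) with a fibroblast score of at least 1. Il1rl1 lies at 1.82 and 2.11, Cxcl2 at 1.06 and 2.21, and Ccl2 at 0.33 and 1.38.

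Mfap2, encoding a microfibril protein (chromosome 4, 141010418 to 141015984, sharing regions with Crocc), fell from 30.1 CPM (26.3 to 34.3) in Control to 15.4 (13.2 to 17.9) in MOF cKO low-ratio cells, over 2.501 and 2.02 kb. Its change was -0.96, and -0.90 where only regions of matched length were counted, and it stood at -0.77 in strict high-ratio cells and -1.45 in epithelial cells. With strict cells and matched lengths together 0 matrix genes were called as fallen, so Mfap2 was not called there. Of all genes 44 of 13576 were. Ackr4, a scavenging chemokine receptor gene, went from 43.9 to 22.3 CPM over 13.1 and 13.2 kb, or -0.98 (-0.15 in promoter regions alone), and from 46.6 to 39.6 in high-ratio cells. Eed, a subunit of the Polycomb repressive complex, went from 49.7 to 25.9 over 1.94 and 1.501 kb, and had only 12 and 5 cuts in regions of matched length. Wbp4 changed by -1.17, but by -0.16 with matched lengths. Dyrk2 (-1.14), Lrrc18 (-1.03), Chrnb4 (-0.96), Cyb5r2 (-0.90), Epha8 (-0.89) and Jph3 (-0.86) were the others among the 10 that fell most, and lay between -0.89 and -1.10 with matched lengths. In promoter regions alone Epha8 did not pass, at -0.40, and Jph3 turned sign, at 0.48.

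Hedgehog genes had a median change of -0.30 (-0.20 in the strict cells) and none of 11 passed. In strict high-ratio cells their median was -0.28 and 2 fell past 1.5-fold, and in epithelial cells it was -0.40. Gli1, a transcription factor and target of the pathway, went from 91.9 to 65.8 CPM in low-ratio cells. It went from 89.4 to 75.5 in high-ratio and from 84.8 to 64.1 in epithelial cells. Dermal condensate genes had a median of -0.24 (-0.27 in the strict cells) and none of 15 passed, and of 39 WNT genes 1 fell, the secreted inhibitor Wif1, from 94.5 to 63.0 CPM, a call it lost in the strict cells at -0.58, and in promoter regions alone its value was 0.044. Over all genes 0.537% fell and 1.53% rose. In strict high-ratio cells condensate genes had a median of -0.32 and 3 fell, and Wif1 stood at -0.76, where 1.08% of all genes fell. Id1, a BMP target, stood at -0.55 and passed in the strict cells at -0.60. Adipogenic genes had a median of 0.01, with Cd36 passing at 0.80. It lost that call in the strict cells at 0.52, and stood at -0.56 in promoter regions alone. Among transcription factors Foxf1 rose by 0.68, where the covered length was 1.09 kb in Control and 2.08 in MOF cKO, so that no region of matched length was left, and among AP-1 factors Batf3 rose by 0.83, from 19.6 to 34.9 CPM. Electron transport genes had a median of -0.01 and 1 of 79 fell beside the same 0.537%, Uqcrc1 at -0.60, which was 0.00 with matched lengths. Genes used to choose the cells are a description only. Col1a1 and Col1a2 stood at -0.44 and -0.47, Pparg at 0.32 and Mfap5 at -0.45.

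The changes of the strict low-ratio cells were then read in strict high-ratio cells of the same libraries. Of the 143 genes that rose, 67 passed the same way there and 11 had the opposite sign, and of the 59 that fell, 23 passed and 2 had the opposite sign, where 1.73% of all genes tested rose and 1.08% fell. The median of the risen genes was 0.72 in low-ratio, 0.55 in high-ratio and 0.29 in epithelial cells, and that of the fallen genes -0.65, -0.52 and -0.49. Exceptions among the named genes were Batf3 (-0.04 in strict high-ratio cells) and Neurl3 (-0.40).

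The share of cuts in promoter regions, within 500 bp of a protein-coding start site, was 37.8% in Control and 28.9% in MOF cKO epithelial cells. The share in low-ratio cells went from 42.7% in Control to 41.7% in MOF cKO, or -0.99 percentage points (-1.03 to -0.94), and by -1.33 in the strict cells. In the middle and high-ratio classes the difference was -0.57 and -0.16, and -0.32 and -0.28 in their cells with a fibroblast score of at least 1. The median over low-ratio cells did not differ in that direction, at 41.6% in Control and 41.7% in MOF cKO, so the difference of the sums depended on how cells were weighted.

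Among distal regions, 48886 were tested, of which 5393 rose at least 2-fold in MOF cKO low-ratio cells (11%) and 2161 fell (4.42%). With the minimum lowered from 100 to 20 cuts 16741 rose and 13316 fell, and per cell, in place of per cut, 2603 rose and 6826 fell, which turned the balance. Among strict cells 4274 of 43903 rose (9.74%) and 1793 fell (4.08%). Of those, 3908 (91.4%) and 1558 (86.9%) moved the same way in strict high-ratio cells, as did 68.0% of all regions tested. Most calls had few cuts, since of the 4154 regions with at least 500 cuts in strict cells 115 rose and 22 fell. Regions on chromosomes X and Y were left out of the rankings that follow, but not of the counts. The largest rise lay between genes 148 kb from the start of Chl1, chr6:103362493-103363424. It had 0 cuts in Control and 155 in MOF cKO low-ratio cells, and 2 and 76 in high-ratio cells. With a floor of 3 cuts in place of 0 the rise was 34.9-fold, and the lower limit of its log2 counting interval was 3.80. The next lay 14.4 kb from Cpa5, with 2 and 127 cuts (log2 change 5.42, 2.91 to 10.8), and 32.0 kb from Glis3, with 2 and 126 (5.41, 2.88 to 10.7). The largest falls lay in an intron of Ubtd1, from 131 to 10 cuts (-4.28, -5.96 to -2.99), 287 kb from Tcf4, from 166 to 13, and in an intron of Kdm4b, from 106 to 15. The minimum was on cuts summed over both libraries, so these rises passed it only through MOF cKO and these falls only through Control. Low-ratio cells of MOF cKO held more cuts (22204711 against 15019092), which makes the minimum easier to reach for a rise. The Ubtd1, Kdm4b and Glis3 regions were covered unequally, over 819, 1610 and 711 bp in Control and 600, 815 and 923 bp in MOF cKO. With strict cells and matched lengths the largest falls were those near Tcf4 and in introns of Jph3 (-3.14) and Gsap (-3.04), and Chl1 and Cpa5 stayed first among the rises.

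For AP-1, the E-box and C/EBP, risen and fallen regions called in the strict cells differed in the direction seen between low- and high-ratio cells. The NFI half-site did not, at 23.6% of risen and 24.1% of fallen regions in the strict cells. Nor did the forkhead motif TGTTTAC (5.43% and 5.35%, where the classes had 4.27% and 5.83%). Both comparisons use the same low-ratio cells and cannot be taken as independent. AP-1 was, in the strict cells, in 44.8% of the regions that rose, 10.3% of those that fell and 22.0% of all tested. The E-box was in 35.6%, 45.1% and 37.7%, and the C/EBP motif in 21.8% and 13.5%. The NF-kB motif GGANTTTCC (4.68%, 0.948% and 2.14%) and the STAT motif TTCCNGGAA (3.60%, 0.613% and 1.58%) were rare but more frequent where regions rose. With at least 500 cuts in strict cells, 115 risen and 22 fallen regions were left. The E-box difference was absent among these, at 36.5% and 36.4%, with 40.1% of all tested. AP-1 was in 48.7% and 18.2% of them and C/EBP in 20% and 9.09%. Only 4 fallen regions held AP-1 there and 2 held C/EBP. Over all 9663 tested regions with AP-1 the median change was 0.36 in low-ratio, 0.62 in high-ratio and 0.84 in epithelial cells, and over those without it -0.01, 0.07 and -0.25. The median change of AP-1 regions was thus above 0 in low-ratio, high-ratio and epithelial cells, and smallest of these in the low-ratio cells.

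The next regions were chosen in the same way as the stretches above, and had matched lengths as well. The regions with most cuts among those that rose with AP-1 were the Gfpt2 region printed above, which changed by 1.42 (1.10 to 1.75), and one between genes 52.9 kb from the start of Il1r1, which changed by 1.20 (0.87 to 1.53), from 13.3 to 30.5 CPM. Of those that fell with an E-box, the first by cuts lay 196 kb from Rpl38, a change of -1.28 (-1.63 to -0.94), from 24.8 to 10.2 CPM in low-ratio and from 39.4 to 24.7 in high-ratio cells, and from 9.21 to 4.45 in epithelial cells. The second lay 152 kb from Dusp10, a change of -1.10 (-1.46 to -0.74), from 21.2 to 9.86 CPM in low-ratio cells and from 33.2 to 18.8 in high-ratio cells, against 0.273 and 0.258 in epithelial cells. Their sequences, with the AP-1 motif and then the E-boxes in capitals, were as follows.
Between genes near Il1r1, chr1:40172048-40172247: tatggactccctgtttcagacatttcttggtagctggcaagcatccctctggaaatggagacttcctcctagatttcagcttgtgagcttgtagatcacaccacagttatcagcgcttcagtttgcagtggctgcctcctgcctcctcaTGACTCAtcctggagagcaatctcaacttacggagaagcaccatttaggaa
Between genes near Rpl38, chr11:114472655-114472854: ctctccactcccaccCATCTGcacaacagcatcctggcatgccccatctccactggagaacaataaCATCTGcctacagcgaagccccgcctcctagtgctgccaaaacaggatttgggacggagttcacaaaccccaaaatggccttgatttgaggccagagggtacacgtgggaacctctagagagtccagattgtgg
Between genes near Dusp10, chr1:183861626-183861825: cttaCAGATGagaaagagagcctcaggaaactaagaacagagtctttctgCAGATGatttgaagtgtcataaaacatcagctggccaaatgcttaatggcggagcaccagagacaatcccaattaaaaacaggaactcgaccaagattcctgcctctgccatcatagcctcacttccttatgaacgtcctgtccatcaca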

How the data were processed

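Single-cell ATAC-seq was measured in 1 Control and 1 MOF cKO library of E16.5 back skin. The deposited matrices hold raw counts of transposition cuts per peak and cell barcode, with no normalization, which the authors made with cellranger-atac (2.0.0 per the file headers), calling peaks and cells in each library separately. The submitters' processing notes name Cell Ranger ATAC, Cell Ranger ARC and mm10. Even values made up 88.8% of the nonzero entries of the Control matrix and 91.6% of the MOF cKO one, since a fragment has 2 ends, so intervals were computed on fragments, taken as cuts divided by 2.

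Matrices were read and summed with numpy 2.4.6, pandas 2.3.3 and scipy 1.17.1, and plotted with matplotlib 3.10.9, under Python 3.11.15, on GRCm38 with the GENCODE M21 annotation. Cells were scored on the peaks of their own library. The peak lists were merged, and the 214119 regions with a peak from each library (overlap of at least 1 bp) were used for all comparisons. Of these, 18975 lay within 500 bp of a protein-coding start site (promoter) and 165639 more than 2000 bp from any start site (distal). Each class was represented by the sum of its cells' cuts, scaled to 1000000 cuts in shared regions (CPM). Genes needed 500 and distal regions 100 summed cuts, and were called at 1.5-fold and 2-fold, in both libraries for the comparison of classes. Cuts were summed over both sides of a comparison, so a gene or region could pass the minimum through the side where it was high. Intervals were exact Poisson for levels, exact binomial for shares and exact conditional binomial for ratios. A side with no cuts was set to 1 cut in fitted log2 values, and folds against it were computed against a floor of 3 cuts. No significance test was run, because each group has 1 library. No doublet caller was run. As alternatives, cells above 2 times the median depth were left out, and so were cells with a high score of another cell type. The scripts were tested on simulated data.

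The members and lists were chosen with earlier results of these data known. Named genes were, by rule, the genes used for choosing cells, Kat8, the 10 highest and 10 lowest genes of each comparison, up to 4 of each list with the largest values or those whose classes changed in opposite directions, and the regions furthest apart (5 each way between classes, 3 each way between genotypes). Between genotypes, chromosomes X and Y were left out of the ranked genes and regions, but not of the counts. Alternatives set beforehand were other scalings, minimums, thresholds for cells, 4 classes in place of 3, thinning to 5000 cuts per cell and promoter regions alone. The fibroblast score of at least 1, regions whose covered lengths in the 2 libraries had a ratio of 0.8 to 1.25, and the regions outside rule gene windows or with at least 500 cuts were added after the data were seen. The values of 1 gene are not reported here.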

Additional observations from a re-analysis of the deposited data

Results flagged for a closer look

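Of genes tested in the low-ratio cells, 4 moved past 1.5-fold in opposite directions between genotypes in low- and high-ratio fibroblasts, and the difference itself was not tested. They are named here after their values were seen. Crybb1, a lens crystallin gene sharing regions with Cryba4, stood at 1.07 in low-ratio and -0.71 in high-ratio cells (log2 MOF cKO over Control), and at 0.29 in low-ratio cells with a fibroblast score of at least 1. Kctd19 stood at 0.59 and -0.59, and at 0.31 in the strict low-ratio cells. For 0610040J01Rik the values were 0.62 and -0.60, with 0.48 in the strict low-ratio cells. Gfral, encoding the GDF15 receptor, ran the other way, at -0.59 and 0.82.

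Regions with a peak in only 1 library were not used in any comparison. They held 8.85% of the cuts in peaks of the MOF cKO low-ratio cells, above 2.89% of those of the Control low-ratio cells.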

How the results depend on the processing

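No paired analysis was possible because each genotype has 1 library, and for the same reason no library could be left out. Redrawing the classes without a gene gave log2 differences in Control and MOF cKO of -0.0041 and 0.25 for Dlk1, 1.65 and 0.64 for Mfap5, 0.21 and 0.17 for Pparg, 0.17 and -0.31 for Dpp4, -0.41 and -0.48 for Lef1, -0.38 and -0.48 for Axin2, -0.17 and -0.065 for Apcdd1, -0.21 and -0.16 for Ntn1 and -1.21 and -0.64 for Dkk1. The promoter share difference was -1.26 with 4 classes in place of 3, -0.23 with thinned cells, -1.43 without cells of other types, -0.85 without the deepest cells and -1.33 with a fibroblast score of at least 1.

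Between low- and high-ratio cells, the numbers of genes higher in low- and high-ratio cells were 348 and 160 with the lower minimum, 58 and 36 in promoter regions alone and 2 and 4 after thinning. Between genotypes, the numbers that rose and fell were 549 and 284 with the lower minimum, 133 and 157 scaled to all cuts in peaks, 26 and 2868 per cell, 5 and 1 after thinning and 134 and 44 with score and length limits together. A further count that rose was 88 in promoter regions alone, 114 without cells of other types and 143 with the score limit, and one that fell was 43 by the median of ratios. Distal regions with the lower minimum numbered 10986 and 6465 between classes and 16741 and 13316 between genotypes, and per cell 2603 rose and 6826 fell. With at least 500 cuts they numbered 367 and 502 between classes and, in strict cells, 115 and 22 between genotypes. AP-1 was in 35.2% (score limit) and 44.1% (at least 500 cuts) of regions higher in low-ratio cells and in 46.6% of risen regions of matched length. The E-box was in 29.9% and 30.8% of the former, and in 56.2% and 60.6% of those higher in high-ratio cells. Between genotypes, with at least 500 cuts in strict cells, it was in 36.5% of risen and 36.4% of fallen regions.

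In promoter regions alone the sign turned for Trpv6 between classes of MOF cKO (0.80) and, between genotypes, for Cd36 (-0.56), Jph3 (0.48), Uqcrc1 (0.0043) and Wif1 (0.044), and with matched lengths for Uqcrc1 (0.0043). The cause was not tested. Of 654 values of single genes between classes 598 stayed within the counting interval of the main value, and of 540 between genotypes 457 did. A turn of sign was looked for only where the main value was at least 1.5-fold, so smaller values within their interval may have changed direction. Thinning to 5000 cuts leaves few genes above the minimum, and with 1 library per genotype no depth replaces replicates.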
